A study of Homo sapiens with 6 samples.

Results

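Nucleolar ribosome biogenesis factors were followed in HCT116, an established human colon cancer cell line, after exposure to shikonin, a naphthoquinone pigment from the root of Lithospermum erythrorhizon. The set comprised 48 genes chosen by symbol: the proteins of box C/D and H/ACA small nucleolar ribonucleoproteins (snoRNPs), nucleolar chaperones, and assembly factors of the small and the large ribosomal subunit. All 48 symbols were found once in the deposited table, and all 48 passed the filter on low counts, among 13548 genes tested. The control group comprised 3 libraries of wild-type cells that the labels give as untreated, and the shikonin treatment group comprised 3 libraries of wild-type cells that the labels give as treated with 8 μM shikonin for 24 h. The methods of the study name a lower dose for the sequenced cells, and they state that shikonin was dissolved in DMSO, whereas the labels do not say whether the untreated cells received the solvent. The sources used here do not say whether replicates were grown as separate cultures, so the p-values cover the variation among these 6 libraries and no more. The libraries are called control 1 to 3 and shikonin 1 to 3 by their label numbers.

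In the nucleolus, RNA polymerase I transcribes a long precursor that is folded, modified and cut into most of the ribosomal RNAs. Box C/D snoRNPs place methyl groups on the ribose of the precursor, H/ACA snoRNPs convert uridines to pseudouridine, and the U3 snoRNP is needed for the cuts that release the small subunit RNA. Large complexes of assembly factors, RNA helicases and GTPases then build the small and the large subunit around the RNA. Growing tumor cells have prominent nucleoli, and many of these genes are known targets of MYC, a basic helix-loop-helix factor that binds the E-box CACGTG with its partner MAX. The study lists MYC among the genes that were lower after shikonin. The level of MYC is not given here, and its part in the results was not tested.

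The promoter windows of several factors are shown because that E-box was more frequent among the members than among other genes. RefSeq windows (GRCh38.p14) of 300 bases, from 250 bases before the gene start to 50 after it, were available for 41 of the 48 genes. CACGTG, which reads the same on both strands, was present in 16 of these 41 windows (39.0%), in 10.1% of the windows of 10186 tested genes and in 7.43% of all 27305 windows. Its place in the window, counted from the RefSeq start used for each gene, was narrow. Some carriers, among them NOP10, NOP2 and EBNA1BP2, begin further upstream in the GENCODE annotation, so their positions depend on the start used. In 15 of the 16 windows a match began between 20 bases before the gene start and the end of the window, a range chosen after the positions were seen. Such a match was found in 36.6% of the members' windows, in 2.24% of those of tested genes and in 1.61% of all windows. One window is printed for each role in which a member carried the motif, that of the carrier with the largest fold change, with CACGTG in capitals and the gene start at base 251.

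FBL (chr19:39846330-39846629, minus strand): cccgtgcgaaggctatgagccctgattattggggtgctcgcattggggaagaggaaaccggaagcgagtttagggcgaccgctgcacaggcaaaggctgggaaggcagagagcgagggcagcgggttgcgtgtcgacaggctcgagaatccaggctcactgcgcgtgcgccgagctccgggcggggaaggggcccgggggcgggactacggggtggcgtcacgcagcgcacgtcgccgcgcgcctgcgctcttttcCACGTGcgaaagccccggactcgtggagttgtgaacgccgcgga

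NOP10 (chr15:34343087-34343386, minus strand): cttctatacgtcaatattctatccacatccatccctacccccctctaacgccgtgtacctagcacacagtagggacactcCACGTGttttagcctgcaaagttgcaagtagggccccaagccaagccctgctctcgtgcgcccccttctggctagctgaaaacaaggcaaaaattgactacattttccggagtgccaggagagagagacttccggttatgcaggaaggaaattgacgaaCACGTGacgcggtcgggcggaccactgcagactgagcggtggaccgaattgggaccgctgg

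WDR43 (chr2:28894417-28894716, plus strand): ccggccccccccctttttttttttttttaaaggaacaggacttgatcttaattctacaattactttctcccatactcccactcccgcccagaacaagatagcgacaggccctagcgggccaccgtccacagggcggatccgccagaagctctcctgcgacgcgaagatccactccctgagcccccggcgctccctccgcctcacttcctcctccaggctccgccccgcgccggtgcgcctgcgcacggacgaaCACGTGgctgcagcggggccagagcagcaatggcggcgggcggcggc

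NLE1 (chr17:35142254-35142553, minus strand): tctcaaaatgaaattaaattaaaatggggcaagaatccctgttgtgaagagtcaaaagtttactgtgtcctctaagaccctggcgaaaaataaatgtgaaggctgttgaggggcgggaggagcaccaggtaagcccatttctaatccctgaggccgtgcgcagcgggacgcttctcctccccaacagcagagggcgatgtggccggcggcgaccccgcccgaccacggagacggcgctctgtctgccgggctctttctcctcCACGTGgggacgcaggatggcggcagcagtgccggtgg

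The E-box of FBL covered bases 257 to 262 of its window, that of WDR43 bases 254 to 259 and that of NLE1 bases 263 to 268, all just after the gene start. NOP10 carried a match at bases 240 to 245, just before the RefSeq start, and a second at bases 81 to 86. Other motifs were counted in the same windows, on both strands and without regard to overlaps between them. CCGGAAG, a core of sites for ETS factors, was present in 29.3% of the members' windows and 19% of those of tested genes (10.7% of all). The palindromic site of NRF1 was present in 7.32% against 2.25% (1.36% of all), and AAGATGGC, part of YY1 sites, in 7.32% against 5.33% (3.03% of all). TGACNNNGC, the core of the antioxidant response element, was present in 14.6% of the members' windows, in 14.9% of those of tested genes and in 13.6% of all. These matches are letters in a window and were not tested as binding sites. The 16 members with CACGTG had a median log2 fold change of 0.45, and 13 of them (81.2%) were higher by the test described next. The 25 with a window without it had a median of 0.40, and 19 (76.0%) were higher. By that test 77.1% of all 48 members and 10.8% of all genes tested were higher. The difference between members with and without the motif was not tested. LYAR and NOP16, the members with the largest rises, had no CACGTG in their windows.

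The groups were compared with edgeR's quasi-likelihood test over all tested genes. Libraries were brought to a common scale with edgeR's TMM factors, and levels are given in CPM, counts divided by the scaled library size in the usual per-million unit. A gene was called when its Benjamini-Hochberg adjusted p was under 0.05. Of the 48 factors, 37 were higher in the shikonin treatment group, 0 were lower and 11 did not pass. Over all genes tested, 10.8% were higher and 11.1% were lower. DESeq2 gave 38 higher and 0 lower members and limma-voom 37 and 0. At an unadjusted p under 0.05 the edgeR test gave 40 higher and 0 lower members, and 16.6% of all genes were higher and 18.0% lower by that rule. The log2 fold change was positive for all 48, as for 47.6% of all genes tested, and ranged from 0.05 to 0.74, with a median of 0.41 against -0.02 over all genes tested. The rises were thus small. At a fold change above 1.5, the limit of the study, 5 members were higher (LYAR, NOP16, NLE1, MRTO4 and BOP1), with the p unadjusted, where 3.43% of all genes were higher and 2.68% lower, and also with it adjusted, where 2.52% were higher and 2.04% lower. At that limit 0 members were lower. The number past it was 3 without shikonin 2, with library totals only or with the length and GC offset that follows. In 40 of the 48 factors every shikonin library lay above every control library, as did 18.1% of all genes tested, and the opposite order, seen in 20.3% of all genes, was seen in 0. CPM are relative to all other transcripts, and in bulk RNA fewer cells of a kind and less RNA per cell cannot be told apart.

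**Figure D1:**
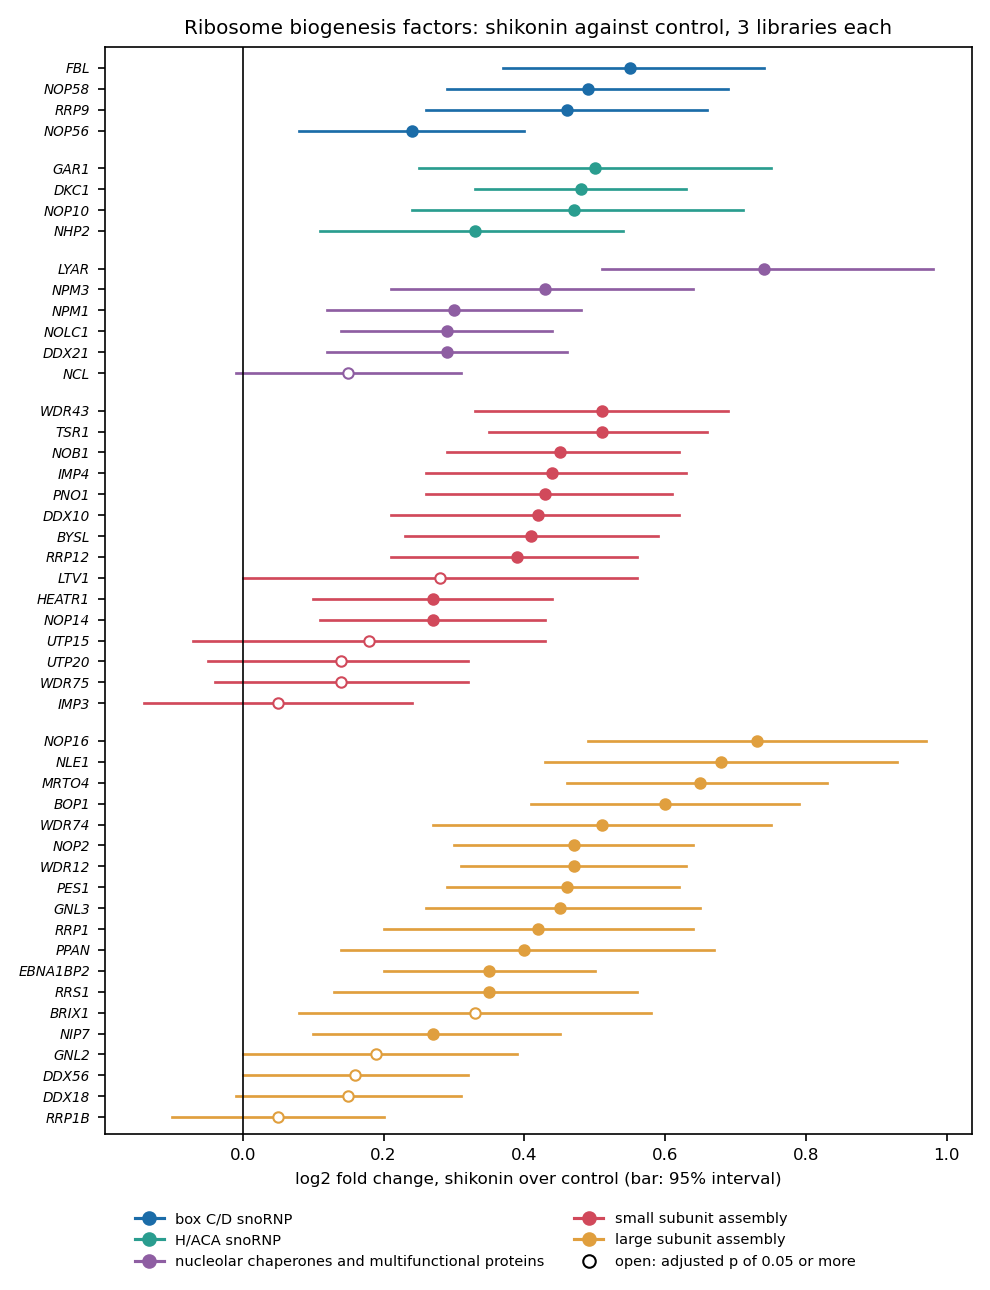
Log2 fold change of each of the 48 factors (x axis) with its 95% interval, grouped by role (colors). Filled points were called and open points were not. All 48 points lie to the right of 0, from 0.05 for RRP1B and IMP3 to 0.74 for LYAR.

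All 6 libraries were of similar depth, with 18845690 to 21765806 estimated counts each. Mitochondrially encoded genes had a share of 4.27% to 5.16% in control libraries and of 6.99%, 4.55% and 5.05% in shikonin 1, 2 and 3. The summed level of 7 epithelial markers was 3670 to 3940 CPM of the unscaled total in the control libraries and 3610 to 4050 in the shikonin libraries, with the villin gene VIL1 at 0 in every library. The summed level of 10 markers of blood and stromal cells was 14.3 to 17.5 CPM of the unscaled total in the control libraries and 20 to 22.4 in the shikonin libraries, most of it CD68, a lysosomal gene that epithelial lines express too, and CD3E was at 0 in every library. By the edgeR test CD68 was higher (log2 fold change 0.63, adjusted p = 0.00293), 1 of 3 tested markers of its list. Of the 6 tested epithelial markers 1 was higher, KRT19 at 0.28 (adjusted p = 0.0496). Over all genes 10.8% were higher. The part of these markers in the results was not tested.

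Among the box C/D proteins all 4 were higher (median log2 fold change 0.47). The share to set beside this count and those of the other roles is 10.8% of all genes tested. FBL encodes fibrillarin, the methyltransferase of the particle. It read 66.0, 71.7 and 59.7 CPM in untreated cells and 95.8, 105 and 89.3 CPM after shikonin. The groups were well apart, and the log2 fold change was 0.55 ± 0.09 SE (adjusted p = 0.000531). NOP58, one of the paired core proteins that hold the guide RNA, read 47.2, 45.3 and 44 CPM in untreated cells and 56.8, 61.1 and 73.5 CPM after shikonin, with replicate 3 the highest (log2 fold change 0.49 ± 0.09 SE, adjusted p = 0.00252). NOP56, its partner in the core, read 137, 130 and 130 CPM untreated and 157, 167 and 142 after shikonin. The groups did not overlap, but the gap between control 1 and shikonin 3 was small, and the log2 fold change was 0.24 ± 0.07 SE (adjusted p = 0.0351). That call was lost without control 1, 2 or 3 or shikonin 1 or 2, with an adjusted p of 0.0768, 0.132, 0.111, 0.0995 and 0.149, and also with a length and GC offset in the fit (0.0991). RRP9, a protein of the U3 snoRNP, read 44.9, 52.3 and 49.8 CPM untreated and 73.1, 70.6 and 58.6 after shikonin (log2 fold change 0.46, adjusted p = 0.00335). Again every shikonin library was above the control libraries, with replicate 3 the lowest of them.

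All 4 proteins of the H/ACA particle were higher as well (median log2 fold change 0.48). DKC1 encodes dyskerin, the pseudouridine synthase that is also part of telomerase. Its level was 88.4, 88.4 and 94.8 CPM in the control libraries and 127, 131 and 121 in the shikonin libraries. Both groups were tight, and DKC1 had the smallest p of the snoRNP genes (log2 fold change 0.48 ± 0.07 SE, adjusted p = 0.000345). GAR1 read 13.2, 13.7 and 14.7 CPM untreated and 18.9, 21.8 and 18.2 after shikonin (log2 fold change 0.50 ± 0.12 SE, adjusted p = 0.00767). NOP10, the smallest subunit, read 38.0, 29.1 and 41.3 CPM untreated and 50.1, 52.8 and 47.7 after shikonin, so control 2 was low (log2 fold change 0.47, adjusted p = 0.00745). NHP2, which binds the RNA beside dyskerin, read 43.8, 39.9 and 47.0 CPM untreated and 51.6, 63.0 and 49.5 after shikonin. Shikonin 2 stood above the others, and replicate 3 lay just above the highest control library (log2 fold change 0.33, adjusted p = 0.0295). The call of NHP2 was lost without control 1 (adjusted p = 0.0908), control 2 (0.138) or shikonin 2 (0.161). With the offset for length and GC content its log2 fold change was 0.16 (adjusted p = 0.199). Exons of NHP2 overlap RMND5B on the other strand. In all, 13 of the 48 members have such an overlap, among them TSR1, NOB1, NLE1, GNL3, WDR74 and RRP12. The sources used here do not say whether counting used strand.

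Of the 6 nucleolar chaperones and multifunctional proteins 5 were higher (median log2 fold change 0.30), where 10.8% of all genes were. In all 6 every shikonin library lay above every control library, as in 18.1% of all genes tested. LYAR, a zinc finger protein of nucleoli, had the largest rise of all 48 factors. It read 16.4, 17.4 and 20.3 CPM in untreated cells and 29.6, 28.1 and 32.8 CPM after shikonin (log2 fold change 0.74 ± 0.11 SE, adjusted p = 0.000382). NPM1 and NPM3 are related histone chaperones, and NPM1 is among the most abundant nucleolar proteins. NPM1 read 564, 539 and 499 CPM untreated and 601, 671 and 704 after shikonin (log2 fold change 0.30, adjusted p = 0.0184), and NPM3 read 24.5, 26.5 and 31.4 CPM untreated and 35.8, 38.5 and 36.4 after shikonin (log2 fold change 0.43, adjusted p = 0.00751). Both separated by group. The call of NPM1 was lost without control 2 (adjusted p = 0.0666), control 3 (0.0821) or shikonin 2 (0.0592), and that of NPM3 without control 1 (0.0556). NPM1 has 49 annotated pseudogenes named after it that can share its reads, so its level is uncertain to that extent.

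NOLC1, a phosphoprotein that escorts snoRNPs, read 261, 261 and 256 CPM in untreated cells and 298, 336 and 316 CPM after shikonin. The control libraries were nearly equal, and the log2 fold change was 0.29 (adjusted p = 0.011). DDX21, a helicase that binds both ribosomal DNA and snoRNAs, differed by 0.29 on the log2 scale (adjusted p = 0.0163). When 1 library was left out, NOLC1 had an adjusted p of 0.0528 without control 1, 0.0505 without control 2 and 0.0521 without shikonin 2. DDX21 had 0.0765 without control 2, 0.0665 without control 3 and 0.0506 without shikonin 2. In all, 3 of the 6 were higher without control 1 or 3 or with library totals only, and 2 without control 2 or shikonin 2. NCL, which encodes nucleolin, read 583, 554 and 560 CPM untreated and 592, 651 and 634 after shikonin. The groups did not overlap but lay close, and NCL did not pass (log2 fold change 0.15, 95% interval -0.01 to 0.31, adjusted p = 0.182). Nucleolin and NPM1 were the 2 most highly expressed members per length of transcript, at 144 and 405 CPM per kilobase in the control group.

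**Figure D2:**
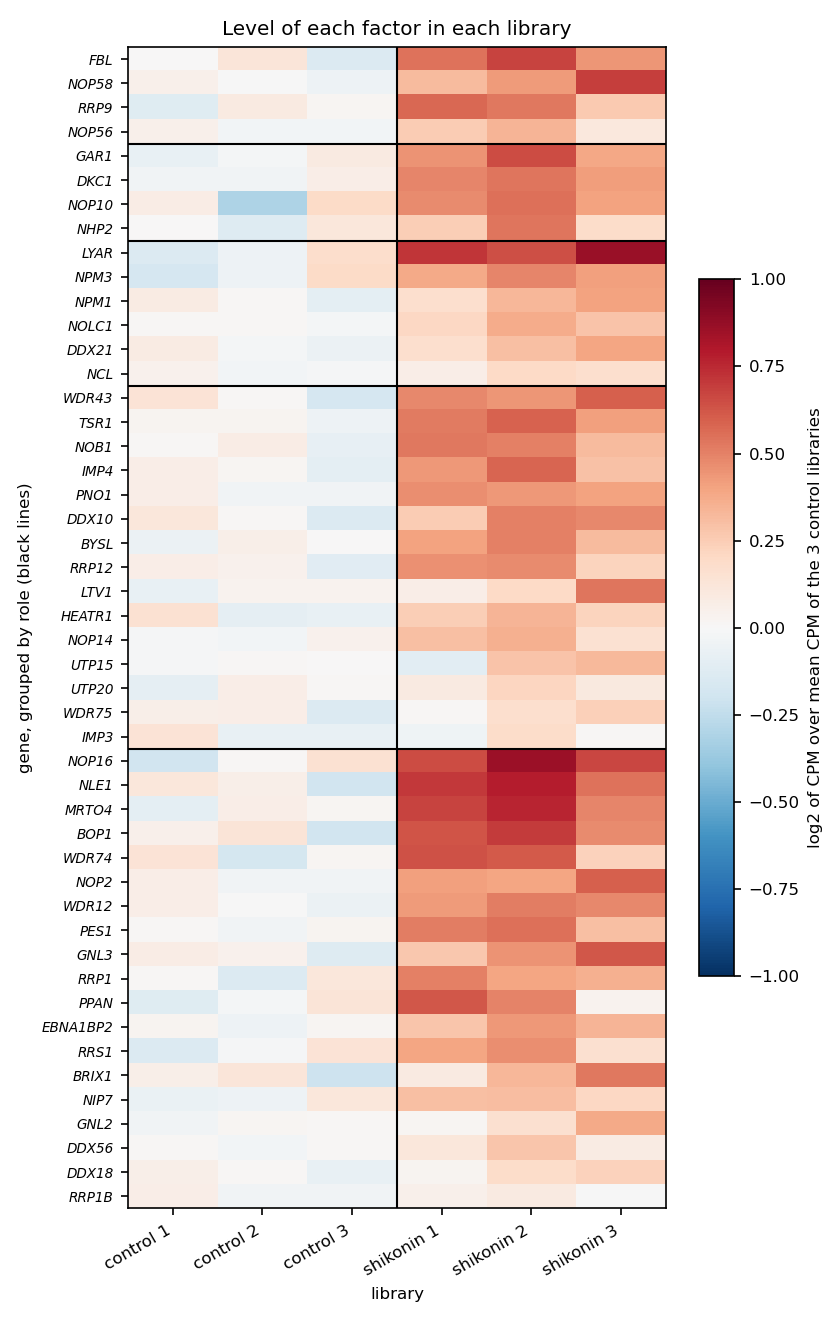
Level of each factor (rows, grouped by role between black lines) in each library (columns), as the log2 of its CPM over the mean of the 3 control libraries. The shikonin columns are mostly red, with medians of 0.39, 0.44 and 0.35. Pale or blue cells are seen, among others, in shikonin 1 for UTP15, WDR75, IMP3, GNL2 and DDX18 and in shikonin 3 for PPAN, RRP1B and IMP3.

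Small subunit assembly factors were higher in 10 of 15 cases (median log2 fold change 0.39). Several of the set act late, on the particle that leaves the nucleolus for the cytoplasm. TSR1, which resembles a translational GTPase, read 84.5, 84.5 and 80.2 CPM in untreated cells and 119, 125 and 111 CPM after shikonin, a clear gap (log2 fold change 0.51 ± 0.07 SE, adjusted p = 0.000288). NOB1, the endonuclease that makes the last cut of the small subunit RNA, read 81.8, 85.3 and 76.6 CPM untreated and 117, 115 and 101 after shikonin (log2 fold change 0.45, adjusted p = 0.0012). Its partner PNO1 differed by 0.43 on the log2 scale (adjusted p = 0.0023), BYSL by 0.41 (adjusted p = 0.00414) and the export factor RRP12 by 0.39 (adjusted p = 0.00407). LTV1, another late factor, did not pass at 0.28 (95% interval 0.00 to 0.56, adjusted p = 0.14). IMP4, of the complex that joins U3 to the precursor, differed by 0.44 on the log2 scale (adjusted p = 0.0028), the helicase DDX10 by 0.42 (adjusted p = 0.00666) and NOP14 by 0.27 (adjusted p = 0.0175). NOP14 lost its call without control 1 (adjusted p = 0.0782), control 2 (0.0817), shikonin 1 (0.064) or shikonin 2 (0.078).

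The UTP-A complex binds the start of the precursor and is linked to its transcription. Of its 4 members in the set, 2 were called, and differences between the 4 were not tested. WDR43 read 81.9, 75.0 and 66.0 CPM in untreated cells and 104, 101 and 113 CPM after shikonin (log2 fold change 0.51 ± 0.08 SE, adjusted p = 0.00091). HEATR1, its largest protein, read 102, 86.4 and 87.7 CPM untreated and 109, 116 and 107 after shikonin. Control 1 came close to the shikonin libraries, and the log2 fold change was 0.27 (adjusted p = 0.0258). The adjusted p of HEATR1 was 0.135 without control 2, 0.103 without control 3, 0.0576 without shikonin 1 and 0.102 without shikonin 2. UTP15 read 21.1, 21.3 and 21.2 CPM untreated and 19.7, 25.8 and 26.6 after shikonin, and WDR75 read 62.6, 63.1 and 54.8 CPM untreated and 60.7, 67.7 and 71.0 after shikonin. In both genes shikonin 1 fell among or below the control libraries. Neither passed (log2 fold change 0.18, 95% interval -0.07 to 0.43 for UTP15, and 0.14, -0.04 to 0.32 for WDR75).

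UTP20, a very long scaffold protein, read 28.0, 31.2 and 30.1 CPM untreated and 31.7, 34.5 and 31.9 after shikonin (log2 fold change 0.14, 95% interval -0.05 to 0.32, adjusted p = 0.297). Its groups lay close without overlapping, and with the offset for length and GC content its log2 fold change was 0.30 (adjusted p = 0.019). IMP3, encoded by 1 exon, read 56.6, 49.1 and 49.1 CPM untreated and 50.1, 58.7 and 51.9 after shikonin. The groups overlapped (log2 fold change 0.05, 95% interval -0.14 to 0.24, adjusted p = 0.711). IMP3 and the called IMP4 belong to the same complex. The sign of IMP3 turned negative with library totals as the only scaling, with the offset and without shikonin 2.

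The large subunit factors were higher in 14 of 19 cases (median log2 fold change 0.42), and 4 of the 5 members past the fold limit were among them. MRTO4, which holds the place of a stalk protein on the young subunit, read 40.8, 45.8 and 44.4 CPM in untreated cells and 69.6, 74.2 and 61.3 CPM after shikonin (log2 fold change 0.65 ± 0.09 SE, adjusted p = 0.000211). It had the smallest p of all 48 factors. NOP16 read 15.7, 18.1 and 19.9 CPM untreated and 28.1, 32.4 and 28.5 after shikonin (log2 fold change 0.73 ± 0.11 SE, adjusted p = 0.000537). NLE1, whose yeast counterpart is released from the young subunit by a giant ATPase, read 16.5, 15.9 and 13.4 CPM untreated and 24.9, 26.3 and 22.2 after shikonin and differed by 0.68 ± 0.12 SE on the log2 scale (adjusted p = 0.00111). All 3 genes separated by a wide gap. MRTO4 and NLE1 carry the E-box just after the gene start.

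BOP1, PES1 and WDR12 form the PeBoW complex, which is needed for processing of the large subunit RNA, and all 3 rose. BOP1 read 92.4, 97.5 and 78.2 CPM in untreated cells and 138, 145 and 124 CPM after shikonin (log2 fold change 0.60 ± 0.09 SE, adjusted p = 0.000374). PES1 read 83.1, 80.6 and 84.1 CPM untreated and 118, 121 and 102 after shikonin (log2 fold change 0.46, adjusted p = 0.00101). WDR12 read 52.3, 50 and 48 CPM untreated and 67.2, 71.3 and 69.8 after shikonin (log2 fold change 0.47, adjusted p = 0.000657). In all 3 every shikonin library lay above every control library, as in 18.1% of all genes tested. Each of the 3 kept its call in every fit that left out 1 library.

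NOP2, a cytosine methyltransferase of the large subunit RNA, differed by 0.47 on the log2 scale (adjusted p = 0.00103), WDR74 by 0.51 (adjusted p = 0.00579) and EBNA1BP2 by 0.35 (adjusted p = 0.00351). RRS1, which helps to bring in the small RNA of the large subunit, had 0.35 (adjusted p = 0.0231) and NIP7 0.27 (adjusted p = 0.0278). Both were sensitive to single libraries. The adjusted p of RRS1 was 0.123 without control 1, 0.0771 without control 2, 0.0789 without shikonin 1 and 0.108 without shikonin 2. That of NIP7 was 0.129, 0.117, 0.0884 and 0.0902 in the same order. PPAN read 29.1, 31.3 and 34.7 CPM untreated and 48.7, 44.8 and 32.6 after shikonin. It is the one called member whose groups overlapped, and shikonin 3 lay within the control range (log2 fold change 0.40, adjusted p = 0.0327). The adjusted p of PPAN was 0.14 without control 1, 0.0967 without control 2, 0.164 without shikonin 1 and 0.123 without shikonin 2, and its transcripts run on into P2RY11, so its counts are uncertain.

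Of the large subunit factors, 5 did not pass. BRIX1 came nearest, with a log2 fold change of 0.33 (95% interval 0.08 to 0.58, adjusted p = 0.0588). It passed with DESeq2 (adjusted p = 0.0395), with median-of-ratios scaling (0.0454), without a filter on low counts (0.0145) and without shikonin 1 (0.0251). DDX56 had 0.16 (95% interval 0.00 to 0.32, adjusted p = 0.133) and passed without shikonin 3 (0.0246). DDX18, a helicase, read 95.8, 92.5 and 87.5 CPM untreated and 93.8, 104 and 108 after shikonin, with shikonin 1 among the control libraries (log2 fold change 0.15, 95% interval -0.01 to 0.31, adjusted p = 0.175). With the offset for length and GC content DDX18 passed (adjusted p = 0.0284).

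Related genes in the set allowed a comparison within each library, added after the values were seen. RRP1 and RRP1B are paralogs on chromosome 21 that act on the large subunit RNA. RRP1 read 20.6, 18.6 and 22.2 CPM in untreated cells and 29.0, 26.9 and 26.1 CPM after shikonin (log2 fold change 0.42, adjusted p = 0.0102, and 0.0609 without control 2). RRP1B read 98.1, 91.6 and 91.5 CPM untreated and 97.3, 100 and 93.7 after shikonin, with the groups overlapping (log2 fold change 0.05, 95% interval -0.10 to 0.20, adjusted p = 0.656), and its log2 fold change was -0.01 with library totals only. The ratio of RRP1 to RRP1B was 0.210, 0.203 and 0.243 in the control libraries and 0.298, 0.269 and 0.279 in the shikonin libraries, with no overlap. GNL3 encodes nucleostemin, a GTPase of stem and tumor cells, and GNL2 a related GTPase of the large subunit. GNL3 read 81.0, 79.1 and 70.5 CPM untreated and 92.7, 105 and 118 after shikonin (log2 fold change 0.45, adjusted p = 0.00305), and GNL2 read 42.1, 43.9 and 43.7 CPM untreated and 43.7, 48.4 and 56.2 after shikonin (log2 fold change 0.19, 95% interval 0.00 to 0.39, adjusted p = 0.155).

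The ratio of GNL3 to GNL2 was 1.93, 1.80 and 1.61 in the control libraries and 2.12, 2.16 and 2.10 in the shikonin libraries. That of NOP58 to NOP56 was 0.344, 0.350 and 0.339 against 0.361, 0.365 and 0.516. Both ratios were apart between groups, the latter mainly through shikonin 3. NPM3 to NPM1 gave 0.0434, 0.0492 and 0.0629 against 0.0595, 0.0574 and 0.0518, which overlapped. Over the 4 pairs compared, an exact two-sided permutation test gave p = 0.1 for the first 3 ratios and p = 0.6 for the last (0.133 and 0.6 after Benjamini-Hochberg adjustment). With 3 libraries against 3 that test cannot go below 0.1.

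Taken per kilobase of transcript, the members covered a wide range of levels in the control group. After NPM1 and NCL came NOP10 at 71.3 CPM per kilobase, NOLC1 at 69.6 and NOP56 at 69.1, which did not differ beyond their spread. At the low end were NLE1 at 2.94, UTP20 at 3.30, UTP15 at 4.17 and WDR12 at 6.21. This order depends on the annotated length of 1 canonical transcript per gene, which was not checked against the transcripts present in these cells. WDR12, at 8068 nt, averaged 50.1 CPM in the control group. GAR1, at 1015 nt, averaged 13.9 CPM but ranked above it with 13.7 CPM per kilobase. The members' summed level was 4131, 4008 and 3919 CPM in the control libraries and 4867, 5237 and 5013 in the shikonin libraries, or 4019 ± 106 and 5039 ± 186 (SD, n = 3 each). Every shikonin library was above every control library in this sum, of which NPM1 and NCL are a large part. Before scaling the members took 0.399% to 0.421% of all counts in the control libraries and 0.466% to 0.507% in the shikonin libraries.

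The libraries labelled shikonin did not rank alike across the members. Shikonin 2 was the highest of the 6 libraries in 29 members, replicate 3 in 13 and replicate 1 in 6, and no control library was the highest in any. The order moved with the GC content of the transcript. In the 16 members with the lowest GC content (38.2% to 43.0%) the median log2 level over the control mean was 0.21, 0.33 and 0.40 in shikonin 1, 2 and 3. In the 16 with the highest (54.7% to 65.6%) it was 0.48, 0.50 and 0.28. Across the 48 members the difference between replicates 3 and 1 had a Spearman's rho of -0.751 with GC content, and across 13515 genes it was -0.54. Between control libraries the rho over members was 0.122 to 0.261. These are descriptions across genes of the same libraries. PPAN, at 61.9% GC, was low in replicate 3, and UTP15, at 38.6%, was low in replicate 1.

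**Figure D3:**
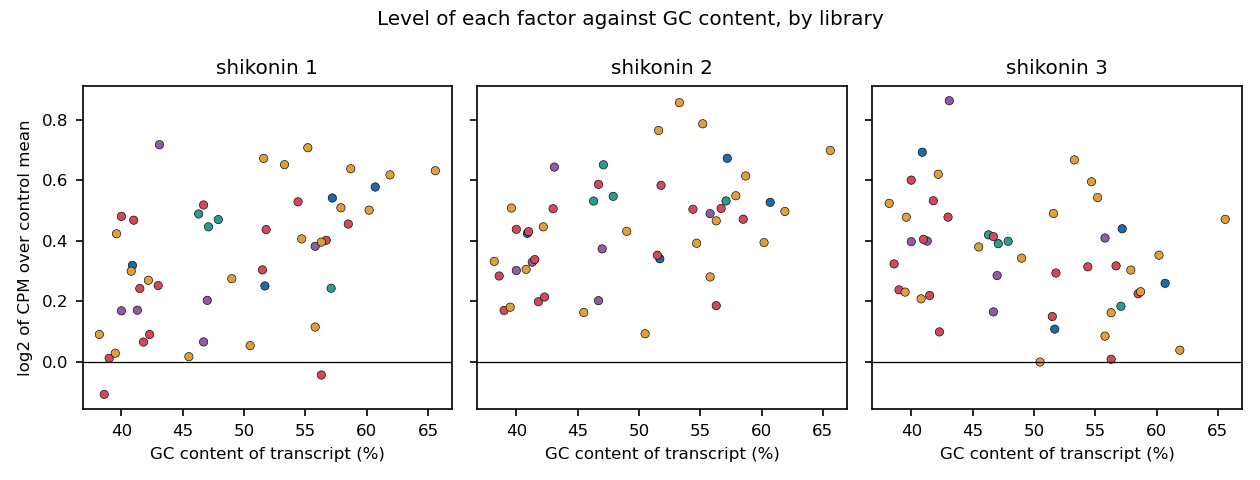
Log2 level of each of the 48 factors over its control mean (y axis) against the GC content of its transcript in percent (x axis), 1 panel for each library labelled shikonin, with colors for roles as in the plot of log2 fold changes. The points climb with GC content in shikonin 1 and descend in shikonin 3, and most lie above 0 in every panel.

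Length moved with the fold change too. Spearman's rho between transcript length and log2 fold change was -0.309 over the 13515 tested genes with an annotated transcript and -0.276 over the 48 members. The median transcript of the members had 2254 nt and that of all genes tested 3265 nt. Of the 16 members with the shortest transcripts (507 to 1720 nt) 14 were higher, with a median log2 fold change of 0.44, and 21.0% of the 2714 tested genes of up to 1720 nt were higher. Among the 16 with the longest (2958 to 9031 nt) 11 were higher, with a median of 0.29, while 6.54% of the 8217 genes above 2650 nt were. With a spline offset for transcript length and GC content in the fit, 34 members were higher, where 12.4% of all genes were, and 0 were lower. Their median log2 fold change was then 0.34, and 32 of the 37 genes called without the offset were called with it. NOP56, NHP2, NPM1, RRS1 and NIP7 were lost, and UTP20 and DDX18 were gained. WDR12, with a transcript of 8068 nt, went from 0.47 to 0.63. IMP3 was at -0.11.

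**Figure D4:**
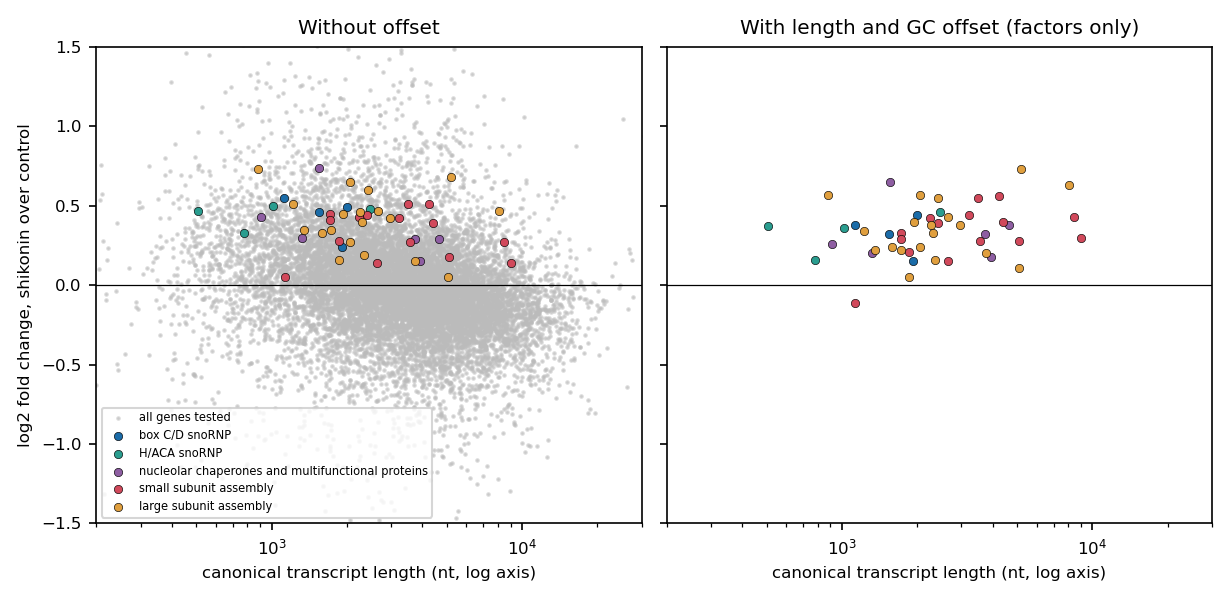
Log2 fold change (y axis) against the length of the canonical transcript in nt (log axis), with the most extreme genes beyond the frame, without an offset on the left, with all genes tested in grey, and with the length and GC offset on the right for the factors alone. The factors (colors by role) all lie above 0 on the left, and on the right IMP3 alone lies below 0.

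Scaling moved the counts as well. With library totals as the only scaling, 29 members were higher, where 7.62% of all genes were, and 0 lower, while over all genes the split went from 1460 higher and 1504 lower to 1033 higher and 2150 lower. Some members can share reads with pseudogenes, overlapping genes or snoRNAs. Exons of 5 members overlap another gene on the same strand (NOP2, RRS1, HEATR1, LTV1 and PPAN). The counts that follow are from the edgeR test with TMM factors, by which 10.8% of all genes were higher. Of 19 members with no pseudogene named after them, no exon overlapping another gene and no snoRNA gene inside them, 14 were higher, with a median log2 fold change of 0.43. Of the 8 members that host snoRNA genes in their introns (NOP56, NOP58, NCL, DKC1, WDR43, TSR1, GNL3 and PPAN), 7 were higher (median 0.47), and of the 40 others 30 were (median 0.40). The 27 snoRNA genes they host were not analysed here.

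Other genes of the pathway, taken from 5 lists made by hand, were read beside the set, and the difference between them was not tested. Of 115 tested genes outside the set, 40 were higher and 2 were lower, with a median log2 fold change of 0.21. Over all genes tested, 10.8% were higher and 11.1% lower, with a median of -0.02. Among the partners of snoRNP assembly 4 of 11 were higher, including the chaperone ATPases RUVBL1 and RUVBL2 at log2 fold changes of 0.41 and 0.47 and SNU13, the RNA-binding protein that starts the box C/D particle, at 0.41 (adjusted p of at most 0.00373). Among other small subunit factors 17 of 39 were higher, led by WDR3 at 0.49 (adjusted p = 0.000565), and 1 was lower. Among other large subunit factors 16 of 44 were higher, with NOP53 at 0.62 (adjusted p = 0.00018), CCDC86 at 0.60 (adjusted p = 0.000882) and EIF6, which keeps the subunits apart, at 0.49 (adjusted p = 0.00103). The number of higher genes outside the set was 26 without control 1, 22 without control 2, 25 without control 3 and 26 without shikonin 2. Over all genes the number fell too, from 1460 to 861, 932, 1144 and 943 in the same order.

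Of 15 tested genes of the nuclear exosome, which trims the precursor from its end, and of other trimming such as the exonuclease XRN2, 3 were higher and 1 was lower, where 10.8% of all genes were higher and 11.1% lower. EXOSC5 read 21.8, 24.2 and 21.3 CPM in untreated cells and 40.5, 42.7 and 32.7 CPM after shikonin (log2 fold change 0.78, adjusted p = 0.000236), and EXOSC7 differed by 0.55 on the log2 scale (adjusted p = 0.00129). EXOSC6, a subunit of the same ring, went the other way. It read 176, 162 and 183 CPM untreated and 116, 105 and 106 after shikonin (log2 fold change -0.67, adjusted p = 4.48e-05). Of 6 tested factors of ribosomal DNA transcription, 0 were called with edgeR, DESeq2 or limma-voom. With edgeR 1 had an unadjusted p under 0.05, TAF1C at a log2 fold change of -0.17. By that rule 18.0% of all genes were lower and 16.6% higher. With library totals as the only scaling 2 of the 6 were lower, as were 2150 of the 13548 genes tested.

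**Figure D5:**
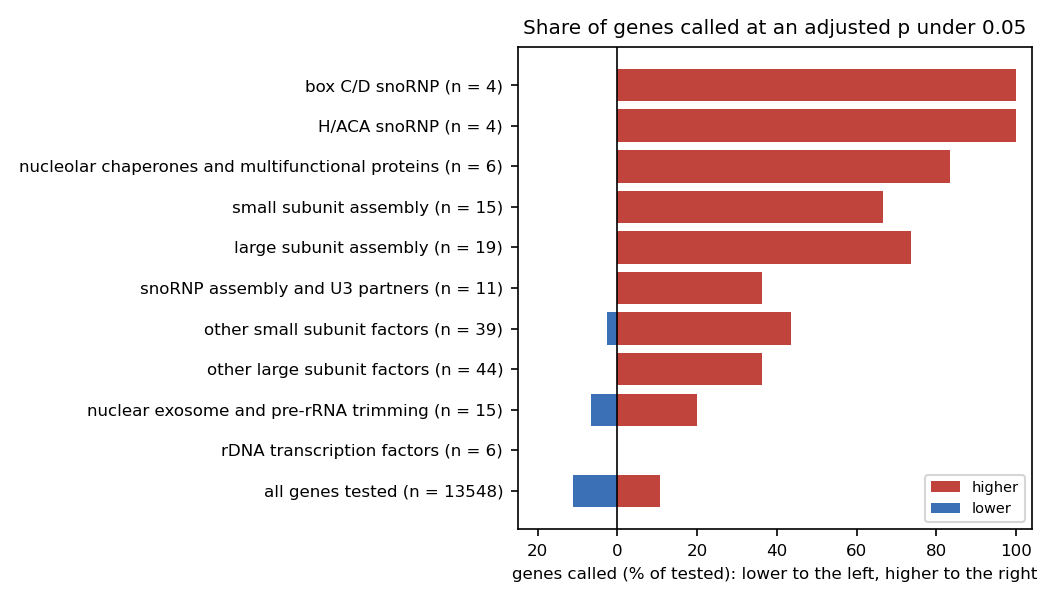
Share of tested genes called higher (red, to the right) or lower (blue, to the left), in percent, for the 5 roles of the set, the 5 other lists of the pathway and all genes tested. The bars of the set reach 66.7% to 100%, those of the other lists 0% to 43.6%, and that of all genes 10.8%.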

How the data were processed

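Messenger RNA of HCT116 cells was sequenced from 3 control and 3 shikonin libraries. Estimated counts of each gene in each library, without scaling for depth, were deposited by the authors. The methods name TopHat2, the human genome hg38 and featureCounts without versions, whereas GRCm38 and mm10, which are mouse builds, stand in the submitters' processing notes. Gene identifiers were human, and 34979 of 35106 were matched to GENCODE release 44 (GRCh38). The annotation release and the origin of the fractional values (46.5% to 63.3% of those above 0) are not given in the sources used here.

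Counts were rounded and analysed in R 4.3.3 with edgeR 4.0.16 (filterByExpr, trimmed mean of M values, glmQLFit, glmQLFTest, Benjamini-Hochberg adjustment over 13548 genes). Standard errors were the absolute log2 fold change over the square root of F. The fits were repeated with DESeq2 1.42.0 and with limma-voom from limma 3.58.1, and further alternatives were a replicate block in edgeR or DESeq2, 2 other scalings, 2 other filters, a spline offset (5 degrees of freedom per term) for length and GC content, and leaving out each library. The members, roles, lists and alternatives were chosen with earlier results of these data known. All 48 members could be named. Library values were given for the 3 smallest p in each role, the 8 largest p and the named complexes and paralogs, and NLE1 and PPAN were added after their values were seen. From each other list of the pathway at most 3 genes were eligible. Promoter windows were searched in Python 3.11.15. RRN3 and SURF6 were not analysed here, and of the cell markers VIL1 and others had too few counts to be tested. Values differed between the libraries of every pair. The lowest count of a member in a library was 254.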

Additional observations from a re-analysis of the deposited data

How the results depend on the processing

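The number of higher members was 37. It lay between 29 and 38 under the alternatives of test, scaling, filter, block and offset and between 26 and 38 when 1 library was left out. Over all genes 1460 were higher, with 1033 to 1677 under the former alternatives and 861 to 2074 under the latter. No alternative gave a lower member. Of the 37 called genes 25 were called under every alternative, and 46 of the 48 members kept a positive log2 fold change under all of them. The exceptions were RRP1B, at -0.01 with library totals only, and IMP3, at -0.01 with library totals only, -0.11 with the length and GC offset, -0.11 with that offset and a replicate block, and between -0.02 (without shikonin replicate 2) and 0.13 (without control replicate 1) when 1 library was left out. None of these values passed the test. The cause was not tested.

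With library totals only, 3 chaperones and multifunctional proteins were higher instead of 5, and 3 members passed the fold limit of 1.5 instead of 5, with an unadjusted or an adjusted p. The latter number was also 3 with the offset, with or without the replicate block. Other pathway genes that were lower numbered 6 with library totals only and 1 with DESeq2 and a replicate block, instead of 2, and over all genes 781 were lower under the latter, instead of 1504. Leaving out 1 library gave 3 to 4 higher box C/D proteins, 3 to 4 H/ACA proteins, 2 to 5 chaperones (3 without control replicate 1 or 3, 2 without control replicate 2 or shikonin replicate 2), 8 to 10 small subunit and 10 to 15 large subunit factors. It gave 3 to 7 members past the fold limit (3 without shikonin replicate 2), 22 to 53 higher and 1 to 3 lower genes of the pathway outside the set, and over all genes 861 to 2074 higher and 776 to 1901 lower.

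The sources used here do not say whether libraries that share a replicate number were paired. The deviations of same-numbered libraries from their group means correlated at 0.00266, 0.0131 and 0.0371. Those of control and shikonin libraries with different numbers correlated at -0.106 to 0.102. Such values cannot settle whether the libraries were paired. With a replicate block 33 members were higher in edgeR and 32 in DESeq2. Over all genes 1186 and 1033 were higher in the same order, against 1460 and 1591 without the block. NOP56, NHP2, NIP7 and PPAN lost their calls with the block in both tests, and RRS1 in DESeq2 alone. The lowest count of a member in a library was 254, in GAR1.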

Other observations

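Of 21 tested genes of proliferation, from a list made by hand, 9 were lower, 0 were higher and 12 were not called with edgeR, where 11.1% of all genes were lower and 10.8% higher. DESeq2 and limma-voom also gave 9 lower and 0 higher. At an unadjusted p under 0.05 the edgeR test gave 11 lower and 0 higher, where 18.0% of all genes were lower and 16.6% higher. Among those not called, MCM3 was at a log2 fold change of 0.02 and MCM2 and AURKA at -0.05. MKI67, the marker of cycling cells, read 105, 104 and 82.0 CPM in untreated cells and 59.9, 63.5 and 61.3 CPM after shikonin (log2 fold change -0.65, adjusted p = 0.00026). The ribonucleotide reductase gene RRM2 differed by -0.58 on the log2 scale (adjusted p = 0.000572) and the replicative helicase gene MCM4 by -0.44 (adjusted p = 0.000802). In all 3 genes the groups did not overlap, and MCM4 averaged 90.4 ± 4.49 CPM untreated and 66.8 ± 1.34 after shikonin (SD, n = 3 each).

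DDX52, a helicase of the small subunit, was the one lower gene among the other assembly factors, at 36.6, 37.7 and 33.2 CPM untreated and 29, 27 and 30 after shikonin (log2 fold change -0.32, adjusted p = 0.0193). It is named after its values were seen, and its adjusted p ranged from 0.0145 to 0.0981 when 1 library was left out. With the length and GC offset its log2 fold change was -0.19, and it was not called (adjusted p = 0.092).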
